A study of Mus musculus with 36 samples.

Results

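The sodium pump moves sodium ions out of the cell and potassium ions in, at the cost of ATP, and so sets the ion gradients on which the electrical activity and calcium handling of heart muscle depend. Its catalytic alpha subunit is carried to the plasma membrane together with a glycosylated beta subunit, and small membrane proteins of the FXYD family bind the complex and tune its affinity and turnover. In heart muscle, the sodium gradient drives calcium out of the cell through the sodium-calcium exchanger, so the pump is coupled to contraction.

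The members are the beta subunit genes Atp1b1 and Atp1b2 and the FXYD genes Fxyd1, Fxyd5, and Fxyd6, taken by gene symbol from the array's annotation. These 5 of 20640 named genes have 10 of the 45101 probe sets (a probe set is a group of short oligonucleotides designed against the same transcript). Atp1b1 has 5 probe sets, Atp1b2 has 2, and the FXYD genes have 1 each. A stage mean above 5 on the log2 scale in at least 1 stage was taken as the limit of expression, and 8 of the 10 probe sets passed it, against 45.9% of all probe sets. Probe set 1437157_at of Atp1b1 and 1422009_at of Atp1b2 did not.

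Whole hearts of OF1 mice, an outbred strain, were profiled on 36 arrays, with 3 arrays for each of 12 stages. These were the embryonic days E10.5 through E19.5, young adults at 10 weeks, and old adults. No group carried a transgene or a treatment. Old adults were 14 months old in the sample labels and 10 months old in the study's methods. At E10.5 and E11.5 all arrays were of mixed sex, and from E12.5 each stage had a female, a male, and a mixed array. The mixed samples pool hearts of both sexes, so the 3 arrays of a stage differ in kind, and per the methods they come from separate biological samples.

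The values are log2 signals and depend on the probe, so levels are compared between stages of 1 probe set and not between probe sets. All 5 measured cardiomyocyte markers (Myh7, Tnnt2, Actn2, Ryr2, and Myl2) were above the expression limit. The extraction text of the labels names liver, whereas the tissue label and the methods name heart, and none of the 3 measured liver markers (Alb, Apoa1, and Afp) passed the limit. The correlation between arrays of 1 stage was at least 0.969 over all probe sets. Spiked-in hybridization controls are RNAs added in fixed amounts. They had means of 9.90 in E10.5, 11.16 in E19.5, and 12.17 in young adult hearts, so their level moved with stage. The 3′ minus 5′ differences of the actin and GAPDH probe sets, measures of RNA quality, moved with stage too. For actin the mean was 4.06 in E19.5 hearts, against 2.86 in E10.5 and 2.83 in young adult hearts, and for GAPDH it was 3.94, against 2.80 and 1.84. In whole hearts, fewer cells of a type and less RNA per cell cannot be told apart.

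The RefSeq promoter windows of 4 of the 5 members are shown because the genes fall into opposite patterns of expression, Atp1b1 falling and Fxyd5 and Fxyd6 rising toward the adult heart. Each window runs from 250 bases before to 50 bases after the transcription start, 5′ to 3′ on the gene's strand, in build GRCm38.p6. Capitals mark the CCAAT box, the GC box (GGGCGG), and the TATA box (TATAAA) on either strand. Atp1b1 lies at chr1:164458306-164458605 (minus strand), Fxyd1 at chr7:31054804-31055103 (minus strand), Fxyd5 at chr7:31042282-31042581 (minus strand), and Fxyd6 at chr9:45369935-45370234 (plus strand).
Atp1b1: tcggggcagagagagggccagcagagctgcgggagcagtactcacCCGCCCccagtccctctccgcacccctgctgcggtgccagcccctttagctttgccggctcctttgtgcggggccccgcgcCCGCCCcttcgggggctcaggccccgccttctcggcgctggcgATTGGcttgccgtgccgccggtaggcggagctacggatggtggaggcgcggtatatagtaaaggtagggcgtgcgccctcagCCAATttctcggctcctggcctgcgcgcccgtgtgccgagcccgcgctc
Fxyd1: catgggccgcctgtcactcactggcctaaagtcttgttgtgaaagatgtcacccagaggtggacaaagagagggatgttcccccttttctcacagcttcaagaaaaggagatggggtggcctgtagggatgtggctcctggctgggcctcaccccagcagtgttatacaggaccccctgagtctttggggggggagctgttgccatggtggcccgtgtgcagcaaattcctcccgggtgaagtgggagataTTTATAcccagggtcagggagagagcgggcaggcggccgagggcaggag
Fxyd5: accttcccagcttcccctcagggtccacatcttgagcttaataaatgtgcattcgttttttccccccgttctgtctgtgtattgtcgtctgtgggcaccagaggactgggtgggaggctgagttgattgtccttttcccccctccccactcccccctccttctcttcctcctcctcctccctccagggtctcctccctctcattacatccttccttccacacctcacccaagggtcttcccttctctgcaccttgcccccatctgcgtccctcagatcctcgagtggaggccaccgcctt
Fxyd6: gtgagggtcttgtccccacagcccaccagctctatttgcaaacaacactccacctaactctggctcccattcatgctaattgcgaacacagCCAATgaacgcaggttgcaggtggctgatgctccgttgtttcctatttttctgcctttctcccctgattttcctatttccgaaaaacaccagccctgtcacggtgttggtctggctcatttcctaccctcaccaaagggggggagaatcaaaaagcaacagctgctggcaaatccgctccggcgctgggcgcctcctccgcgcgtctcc
The Atp1b1 window is GC-rich (71% G and C) and holds 2 matches of the CCAAT box and 2 of the GC box. These motifs occur in 37.4% and 35.7% of the 32851 promoter windows. The Fxyd1 window (58.7% G and C) holds 1 match of the TATA box, found in 13.6% of all windows. That match lies at position 1 from the transcription start, on the strand opposite to the gene, and not upstream of the start. Of the 2 CCAAT matches of Atp1b1, 1 also lies at position 1. The Fxyd6 window (54.3% G and C) holds 1 match of the CCAAT box, and the Fxyd5 window (57.3% G and C) holds none of these motifs. The E-box CANNTG, found in 72.3% of windows, had 1 match in Fxyd5 and 2 in Fxyd6, none in Atp1b1 or Fxyd1, with no overlap with the marked motifs. The MEF2 and CArG motifs, in 3.19% and 1.63% of windows, had no match in these windows. A match is a sequence description only, and no binding was measured here.

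Atp1b1, the main beta subunit of heart muscle, was downregulated between E19.5 and the adult heart. With its brightest probe set, 1439036_a_at, the signals were 11.62, 11.55, and 12.04 at E10.5 and 11.90, 11.46, and 12.15 at E19.5. Young adult hearts measured 9.93, 9.84, and 10.64, and old adult hearts 9.52, 10.19, and 8.74. Every embryonic array was above every adult array. The 10 embryonic stage means lay between 11.74 and 12.37, with the highest at E15.5, and neighbouring stages in that order overlapped. The only gap in the order of 12 stages lay between the embryonic and the adult hearts, where the E10.5 mean exceeded the young adult mean by 1.60 on the log2 scale.

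The other bright Atp1b1 probe sets were also lower in young adult hearts than at E19.5, and they were already lower at E19.5 than at E10.5. Probe set 1451152_a_at measured 11.18, 11.20, and 11.30 at E10.5, then 10.21, 10.09, and 9.82 at E19.5. It measured 7.92, 8.29, and 8.14 in young adult hearts. Its 3 stages therefore formed 3 separate levels without overlap. Probe sets 1423890_x_at and 1418453_a_at had the same order of these stages, with means of 10.96, 9.69, and 7.90 for the former and 10.24, 8.90, and 8.06 for the latter. The plot of the Atp1b1 probe sets shows the flat embryonic course of 1439036_a_at beside the decline of the others.

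**Figure D1:**
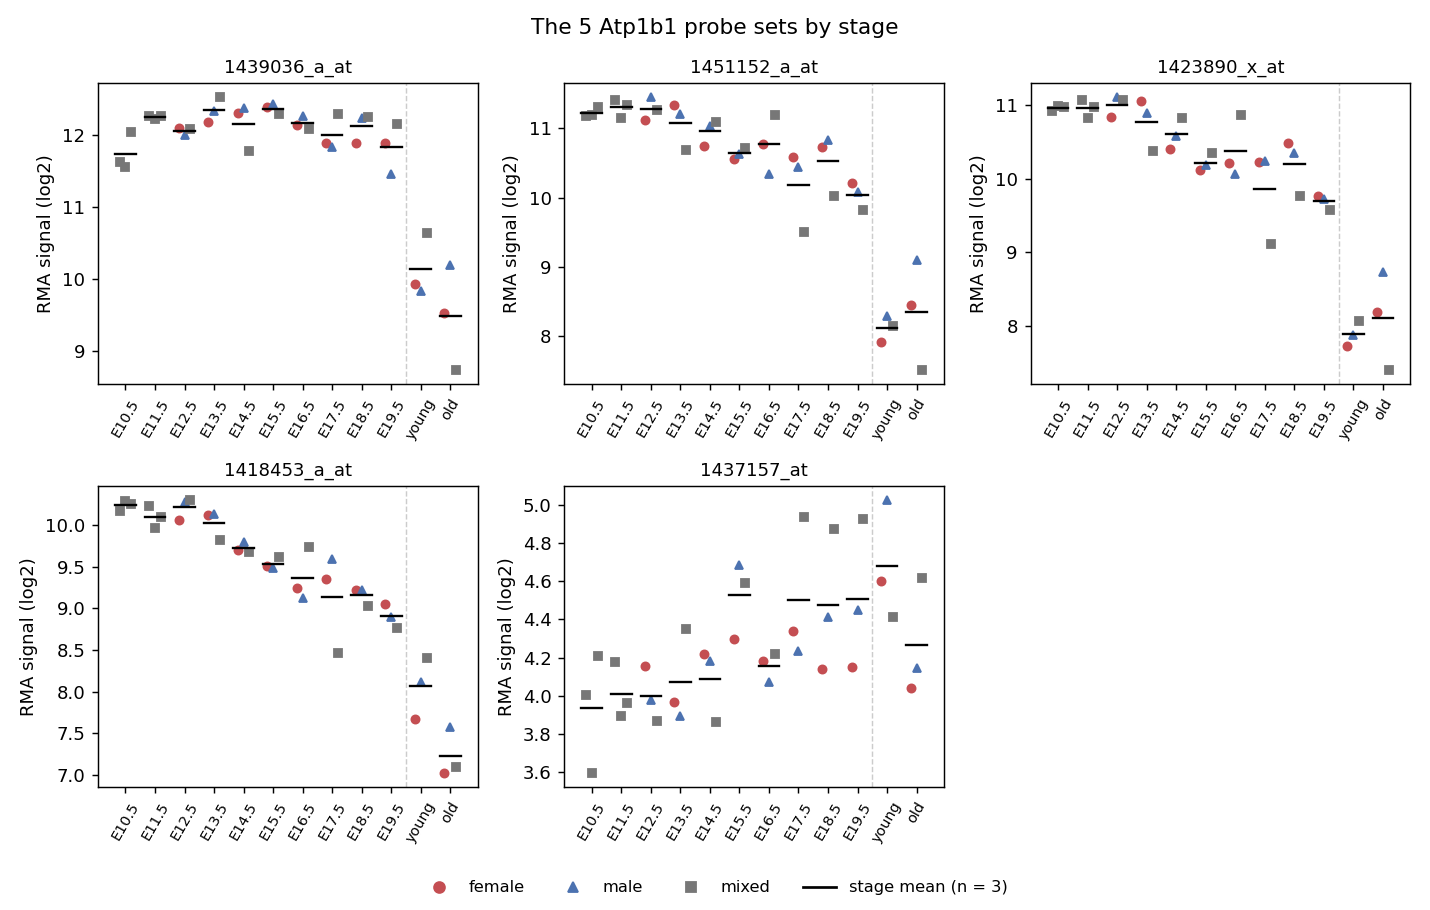
Signal (log2) of the 5 Atp1b1 probe sets over 12 stages, 1 symbol per array (circle, female; triangle, male; square, mixed) and a bar for the mean of 3 arrays; each panel has its own scale and the dashed line marks birth. The 4 expressed probe sets were lower in adult hearts, 1439036_a_at stayed between stage means of 11.74 and 12.37 before birth, and 1437157_at stayed below the limit of 5 in all stage means.

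For the whole embryonic series the difference between probe sets was described by a slope per embryonic day over 30 arrays. Probe set 1451152_a_at fell by 0.14 ± 0.019 (SE) on the log2 scale per day (adjusted p = 2.23e-07, limma). The slopes were -0.15 for 1423890_x_at (adjusted p = 8.77e-08, limma) and -0.16 for 1418453_a_at (adjusted p = 4.03e-11, limma). For 1439036_a_at the slope was -0.0040, with a 95% interval from -0.038 to 0.030. The difference between 1439036_a_at and 1451152_a_at within an array was 0.51 ± 0.20 (SD, n = 3) in E10.5 hearts. In E19.5 hearts it was 1.80 ± 0.49 (SD, n = 3), without overlap. An exact two-sided permutation test of 3 against 3 arrays gave p = 0.1, the smallest p this design allows.

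The probe sets also differed in how they followed the array's technical controls. Within stages, over 36 arrays, the correlation with the hybridization controls was -0.66 for 1451152_a_at, -0.72 for 1423890_x_at, and -0.54 for 1418453_a_at, against 0.26 for 1439036_a_at. The E17.5 mixed array shows this most plainly. It had the highest control level of its stage (12.01, against 10.95 and 11.60). Its signals were 9.5, 9.12, and 8.47 for the 3 declining probe sets, against at least 10.44, 10.22, and 9.35 on the other arrays of that day. All 5 measured cardiomyocyte markers were lowest of their stage on this array too. The log2 of their summed signals was 14.84, against 15.27 and 15.17, and the part of heart muscle content was not tested. With the control level as a covariate, the differences of E10.5 from E19.5 were 0.27 for 1451152_a_at (adjusted p = 0.64, limma) and 0.33 for 1423890_x_at (adjusted p = 0.47, limma) in place of 1.19 and 1.26, whereas 1418453_a_at remained called with a difference of 0.82 (adjusted p = 0.0149, limma). Their part in the embryonic decline was not tested beyond these values, since the control level and the stage moved together.

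**Figure D2:**
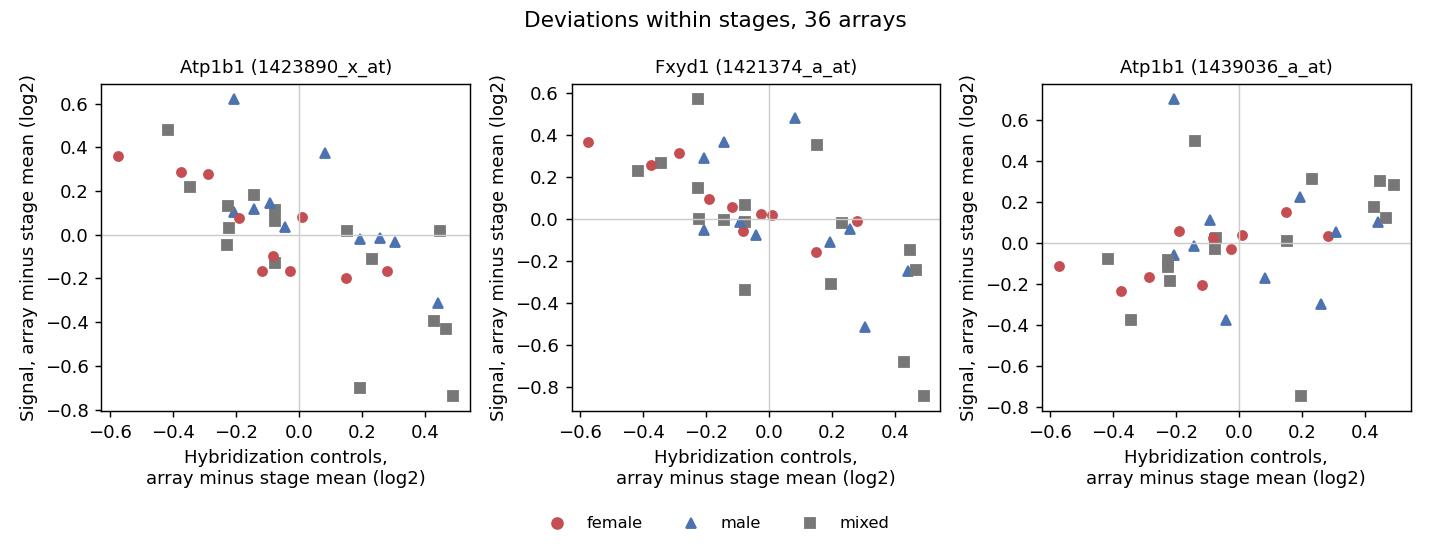
Deviation of each of 36 arrays from its stage mean (log2) for the hybridization controls (x axis) and for 3 member probe sets (y axis), 1 symbol per array by sex label. Arrays with higher controls had lower signals of Atp1b1 1423890_x_at (r = -0.72) and Fxyd1 (r = -0.69), and Atp1b1 1439036_a_at did not follow this direction (r = 0.26); the points of 1 stage share that stage's mean.

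Atp1b2, a beta subunit best known from glia, where it also acts in cell adhesion, had its highest stage mean at E15.5. Its probe set 1435148_at measured 6.62, 6.59, and 6.97 at E10.5, then 7.46, 7.39, and 7.57 at E15.5, and 7.06, 7.08, and 7.02 at E19.5. In young adult hearts it measured 6.50, 5.66, and 6.50. All 3 arrays of E15.5 were above all arrays of E10.5, E19.5, and both adult stages. Among the 8 stages from E11.5 to E18.5, each was higher than young adult, by 0.80 to 1.25 on the log2 scale. The low young adult value of 5.66 was the male array's. Without it the difference of E10.5 from young adult was 0.23 (adjusted p = 0.12, limma) in place of 0.51.

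Fxyd1 encodes phospholemman, the main FXYD protein of heart muscle, which restrains the pump until it is phosphorylated. Its lowest stage means were those of E10.5 and E11.5. The signals of 1421374_a_at were 7.97, 7.83, and 7.68 at E10.5 and 8.42, 8.10, and 8.78 at E11.5, and they reached 9.02, 8.98, and 9.09 by E12.5. The arrays of these 3 days did not overlap. From E12.5 on the stage means stayed between 8.99 and 9.54, and neighbouring stages overlapped. E19.5 hearts measured 9.24, 9.07, and 9.13 and young adult hearts 9.14, 9.03, and 9.08. Their difference was 0.06, with a 95% interval from -0.50 to 0.62, and with the hybridization controls as a covariate it was -0.71 (adjusted p = 0.0355, limma). The mixed arrays of E13.5 and E17.5 were low (8.56 and 8.70, against at least 9.55 and 9.91 for the other arrays of those days). Both had the highest hybridization controls of their stage, and on both all 5 measured cardiomyocyte markers were lowest of their stage. The part of the controls and of heart muscle content in these low values was not tested.

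Fxyd5 encodes dysadherin, an FXYD protein that also affects cell adhesion. Its signals (1418296_at) were 5.65, 5.58, and 5.58 at E10.5 and stayed at stage means between 5.60 and 6.14 until E18.5. At E19.5 they were 7.09 and 6.81 on the female and male arrays and 6.0 on the mixed array. Young adult hearts measured 7.57, 7.71, and 7.80, and old adult hearts 7.56, 7.67, and 8.77. Each adult array exceeded each embryonic array. The spread at E19.5 and in old adult hearts came from 1 mixed array each, the former low and the latter high.

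Fxyd6 encodes phosphohippolin, an FXYD protein described mainly in brain. It was not above the expression limit in any embryonic stage mean, and it was above it in both adult stages. Its signals (1417343_at) were 4.06, 4.14, and 3.60 at E10.5 and 4.35, 4.25, and 4.17 at E19.5. They were 6.95, 5.79, and 6.32 in young adult hearts and 6.66, 6.73, and 6.70 in old adult hearts. The lowest adult array (5.79, young male) was above the highest embryonic array (4.57, E12.5 mixed). The plot of the 5 brightest probe sets gives these courses side by side.

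**Figure D3:**
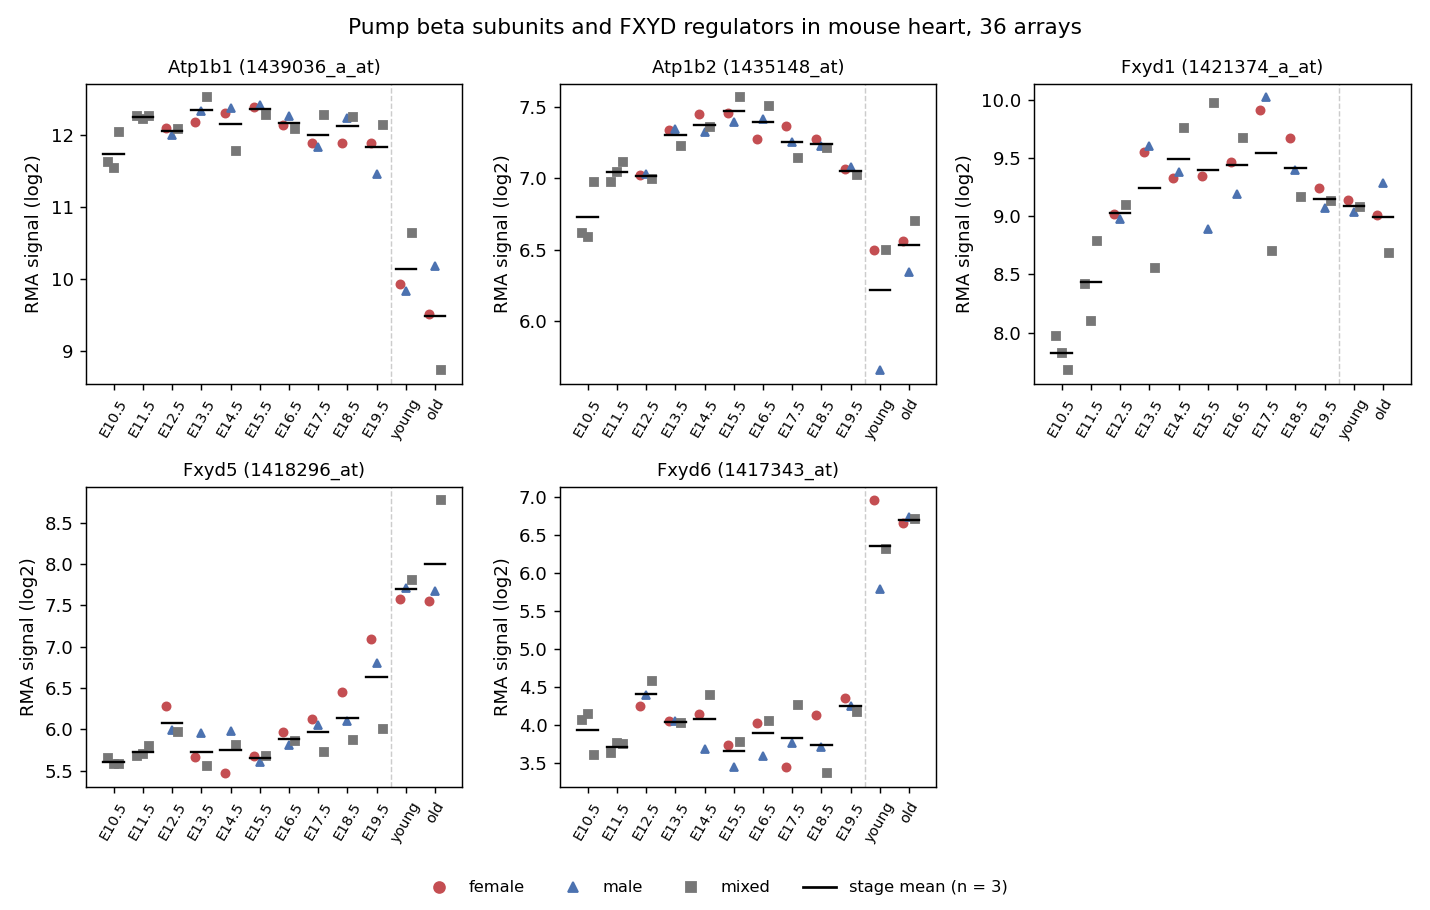
Signal (log2) of the brightest probe set of each member over 12 stages, 1 symbol per array (circle, female; triangle, male; square, mixed) and a bar for the mean of 3 arrays; each panel has its own scale and the dashed line marks birth. Atp1b1 and Atp1b2 were lower in young adult hearts than at E19.5, Fxyd5 and Fxyd6 were higher, and Fxyd1 had its lowest stage means at E10.5 and E11.5.

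In the comparison of E10.5 with young adult hearts, which asks how far the earliest heart lies from the mature heart, beta subunit probe sets were mostly higher in the embryo and FXYD genes were lower. Of the 10 probe sets, 5 were higher (27.1% of all probe sets) and 5 were lower (35.9% of all), at an adjusted p under 0.05. The higher ones were 4 of Atp1b1 and 1435148_at of Atp1b2. The lower ones were Fxyd1, Fxyd5, Fxyd6, and the 2 probe sets below the expression limit. The median over the 10 was 0.04 on the log2 scale, against -0.19 over all probe sets.

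The differences of Atp1b1 were 3.11 ± 0.28 (SE) for 1451152_a_at (8.64-fold; adjusted p = 5.02e-11, limma) and 1.60 ± 0.24 (SE) for 1439036_a_at (3.04-fold; adjusted p = 1.13e-06, limma). Fxyd6 differed by -2.42 ± 0.22 (SE), being 5.35-fold lower at E10.5 (adjusted p = 1.11e-10, limma). Fxyd5 was lower by -2.09 ± 0.23 (SE; adjusted p = 4.04e-09, limma) and Fxyd1 by -1.26 ± 0.28 (SE; adjusted p = 0.000251, limma). Since Fxyd6 lay below the limit in embryos, its fold depends on the array's background there. The difference of Atp1b2 was 0.51 ± 0.15 (SE; adjusted p = 0.00448, limma), and it was 0.02 (adjusted p = 0.92, limma) after a second quantile normalization and -0.02 with arrays centred on expressed probe sets.

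Stricter DEG limits asked for 3 things together: an adjusted p below 1e-05, a log2 fold change beyond 2 in either direction, and expression over the limit of 5 in some stage. Past them were 3 Atp1b1 probe sets in the higher direction (4.43% of all probe sets) and Fxyd5 and Fxyd6 in the lower direction (2.1% of all). With the hybridization controls as a covariate the count fell from 5 to 2, Fxyd1 (-2.99) and Fxyd6 (-3.19). The differences of 1451152_a_at and 1423890_x_at were then 1.46 and 1.37, each still called at an adjusted p under 0.05.

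The comparison of E19.5 with young adult hearts covers the interval around and after birth. Again 5 of 10 probe sets were higher in the embryo (15.5% of all probe sets), namely 4 of Atp1b1 and 1435148_at of Atp1b2, and 2 were lower (13.6% of all), namely Fxyd5 and Fxyd6. The log2 fold changes of Atp1b1 were 1.70, 1.92, 1.79, and 0.84 in order of brightness. The last, of 1418453_a_at, was 0.42 (adjusted p = 0.15, limma) with the hybridization controls as a covariate and 0.56 (adjusted p = 0.21, limma) with the actin difference. Atp1b2 was higher by 0.83 ± 0.15 (SE; adjusted p = 5.83e-05, limma). Fxyd6 was lower by -2.10 ± 0.22 (SE), or 4.28-fold (adjusted p = 9.47e-09, limma), and Fxyd5 by -1.06 ± 0.23 (SE; adjusted p = 0.00058, limma).

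Fxyd6 alone passed the DEG limits at E19.5 in the lower direction (0.634% of all probe sets), and no member did in the higher direction (0.818% of all). It met the limit on expression through the adult hearts alone, and its fold rests on a signal below that limit at E19.5. Without the young adult female array it was no longer among them, at -1.80. With the actin difference as a covariate it was -1.51 (adjusted p = 0.000498, limma), and within stages the Fxyd6 signal and the actin difference had a correlation of -0.48 over 36 arrays. Without the E19.5 mixed array 2 members passed. Both comparisons share the young adult arrays, so their values are given side by side and not as independent results.

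**Figure D4:**
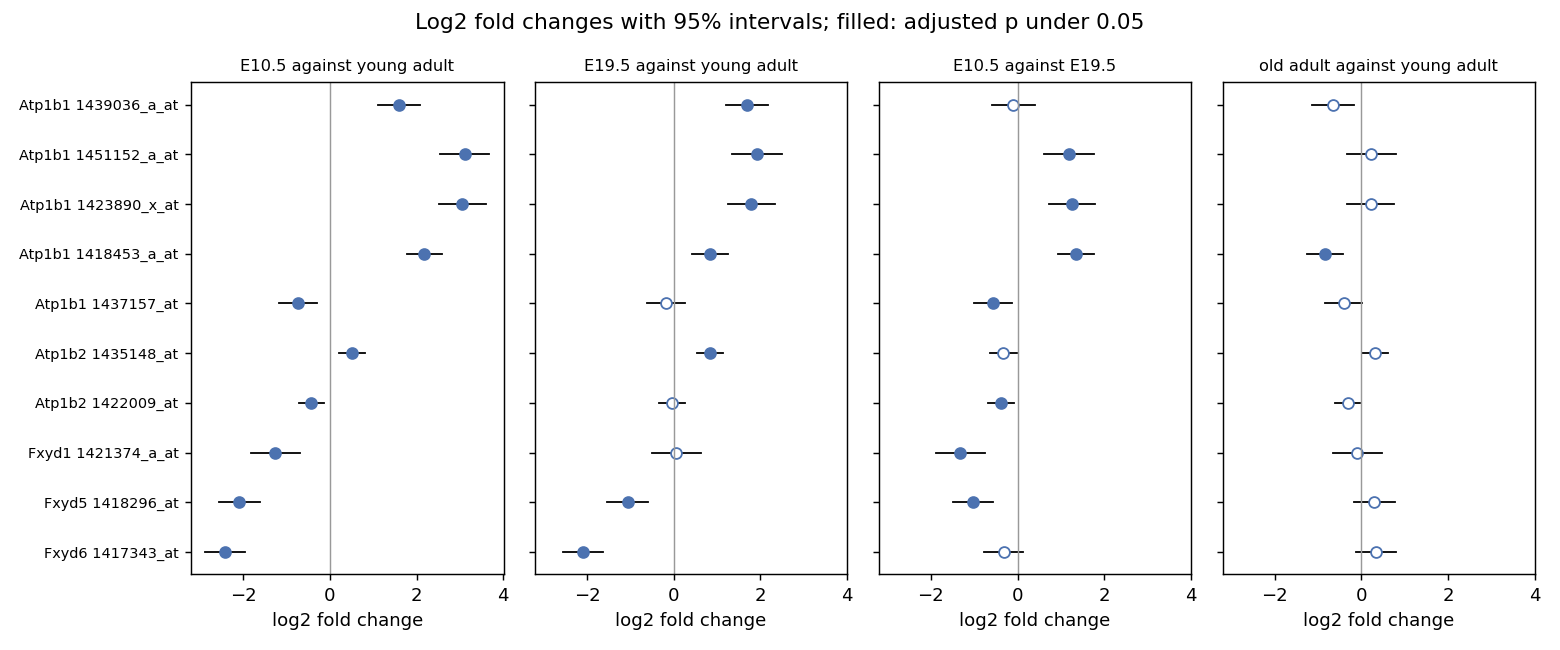
Log2 fold change of the 10 member probe sets in 4 stage comparisons (x axis, first stage minus second; limma model on 36 arrays), with lines for 95% intervals and filled points for an adjusted p under 0.05. Against young adult hearts the Atp1b1 probe sets above the expression limit lay to the right (higher in the embryo) and Fxyd5 and Fxyd6 to the left, and in old adult hearts 1 probe set was called.

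Within the embryonic period, E10.5 differed from E19.5 for 7 of 10 probe sets. At E10.5, 3 were higher (21.8% of all probe sets), all of Atp1b1, and 4 were lower (23.7% of all): Fxyd1, Fxyd5, and the 2 probe sets below the limit. The difference was 1.34 ± 0.20 (SE; adjusted p = 3.29e-06, limma) for 1418453_a_at of Atp1b1 and -1.32 ± 0.28 (SE; adjusted p = 0.000254, limma) for Fxyd1. For Fxyd5 it was -1.03 ± 0.23 (SE; adjusted p = 0.000565, limma). Fxyd6 differed by -0.32, with a 95% interval from -0.78 to 0.14, and Atp1b2 by -0.33 (adjusted p = 0.0738, limma). Atp1b2 was called after a second quantile normalization (-0.71; adjusted p = 0.000852, limma), with arrays centred on expressed probe sets (-0.67; adjusted p = 0.00127, limma), with array weights (-0.42; adjusted p = 0.0020, limma), and without the third E10.5 array (-0.45; adjusted p = 0.0263, limma). With the hybridization controls as a covariate 3 probe sets were called, which were 1418453_a_at, Fxyd1, and Fxyd5. With the actin difference Fxyd5 was -0.86 (adjusted p = 0.0652, limma) and Fxyd6 -0.89 (adjusted p = 0.0291, limma).

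Steps of 1 day were compared next. Between E11.5 and E10.5 no member was called (2.53% of all probe sets), and over the 9 daily steps 0 of 90 member tests passed (0.592% of all tests). At an unadjusted p under 0.05 there were 3 of 10 (15.5% of all probe sets) and 8 of 90 (8.06% of all tests), respectively. The smallest unadjusted p among the daily steps belonged to Fxyd6 between E11.5 and E12.5, with a difference of 0.69 (adjusted p = 0.68, limma). For Fxyd1 the difference between E10.5 and E11.5 was 0.61 (adjusted p = 0.27, limma). From E11.5 to E18.5, 63 of 80 tests against young adult passed (44.1% of all tests). They comprised all 8 stages for the 4 expressed Atp1b1 probe sets, Atp1b2, Fxyd5, and Fxyd6, and E11.5 alone for Fxyd1. The remaining 6 were of the probe sets below the limit. Against E19.5, 20 of 80 passed (13.8% of all tests). Those above the limit were E11.5 to E14.5 for 1451152_a_at and 1423890_x_at, E11.5 to E15.5 for 1418453_a_at, 5 stages for Fxyd5, and E11.5 for Fxyd1.

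As slopes over the embryonic days, 5 of 10 probe sets rose (42.1% of all probe sets) and 3 fell (25.4% of all). Fxyd1 rose by 0.13 ± 0.030 (SE) per day (adjusted p = 0.000303, limma) and Fxyd5 by 0.07 ± 0.018 (SE) per day (adjusted p = 0.00103, limma). The stage means of Fxyd1 were 7.82, 8.43, and 9.03 on the first 3 days and at least 9.15 from E13.5 on, and those of Fxyd5 were at most 6.14 until E18.5 and 6.63 at E19.5. With the actin 3′ minus 5′ difference as a covariate, the Fxyd1 slope was 0.08 (adjusted p = 0.0673, limma). Without the arrays from the E16.5 female on, whose titles carry a prefix that the earlier ones lack, the Fxyd5 slope was 0.0060 (adjusted p = 0.83, limma). The slope of Atp1b2 was 0.04 (adjusted p = 0.021, limma), and it was 0.01 (adjusted p = 0.51, limma) without E10.5. Across all 12 stages, 9 of 10 members differed by an F test (68% of all probe sets), with 1422009_at of Atp1b2 as the exception.

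Old and young adult hearts differed for 1 of 10 members. Probe set 1418453_a_at of Atp1b1 was lower in old adults (3.13% of all probe sets were), and no member was higher (3.83% of all were). Its signals were 7.02, 7.58, and 7.09 in old and 7.67, 8.12, and 8.40 in young adult hearts, that is, a difference of -0.84 ± 0.20 (SE; adjusted p = 0.0110, limma). The groups did not overlap, but the call was lost without the young adult mixed array (-0.67; adjusted p = 0.0751, limma). The other expressed Atp1b1 probe sets overlapped between the ages, with differences of -0.65, 0.23, and 0.21. Without the old male array, 1439036_a_at was lower by -1.01 (adjusted p = 0.010, limma), which makes 2 calls. On the old male array this probe set and all 5 measured cardiomyocyte markers had their highest value of the stage. The part of heart muscle content was not tested. At an unadjusted p under 0.05, 4 of the 10 differed (23.1% of all probe sets).

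The old adult mixed array had the lowest Atp1b1 signals of its stage for 3 of the 4 expressed probe sets, for example 8.74 for 1439036_a_at, and the highest Fxyd5 signal (8.77). Without it Fxyd5 differed between the ages by -0.08 in place of 0.30, and neither value was called. Leukocyte markers were higher in old adult hearts for 4 of 6 genes (Ptprc, Cd52, Coro1a, and Cd74). The log2 of the summed signals of all 6, among which Lyz2 was the brightest, was 10.9 in the old female, 10.3 in the old male, and 10.6 in the old mixed array, and it ranged from 10.0 to 10.2 in young adult hearts. Endothelial markers were higher in old adults for 2 of 5 genes (Pecam1 and Kdr), with a median of 0.81. All 5 had their highest value of the stage in the old mixed array, where Fxyd5 was high. In the E19.5 mixed array, where Fxyd5 was low, all 5 had their lowest. They were also lowest of their stage in the E12.5 female and E14.5 male arrays, where Fxyd5 was highest of its stage (6.29 and 5.98). All 5 mesothelium and epithelium markers were lowest of their stage in the E19.5 mixed array too. The log2 of the summed endothelial signals was 10.3, 10.6, and 11.1 in the old female, male, and mixed arrays. In those of E19.5 it was 9.92, 9.81, and 9.17. The part of these cells in the Fxyd5 values was not tested.

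Males and females were compared over 9 pairs of arrays from E13.5 to old adult. No member was called (0.0488% of all probe sets), and 1 of 10 had an unadjusted p under 0.05 (7.8% of all probe sets). This was Fxyd6, lower in males by -0.28 ± 0.12 (SE; adjusted p = 0.60, limma) and higher in males in 2 of 9 pairs. In young adults the Fxyd6 signal was 5.79 in the male and 6.95 in the female heart. In old adults the values were 6.73 and 6.66. The log2 of the summed signals of the 4 measured adipocyte markers was 7.03 in the young male and 9.58 in the young female array. In the old male and female arrays it was 6.19 and 8.58. All 6 fibroblast markers had their highest value of the stage in the young female array. In old adults 3 were highest in the female and 3 in the male array. The log2 of the summed fibroblast signals was 13.2 in the young male and 13.7 in the young female array. For the old male and female arrays the fibroblast values were 13.6 and 13.7. The part of these cells in the Fxyd6 values was not tested.

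Markers of other cell types differed between stages as well, and many of them in the direction of Fxyd5 and Fxyd6. Between E10.5 and young adult hearts, all 6 leukocyte, all 4 measured adipocyte, and 4 of 5 endothelial markers were lower in the embryo. So were 4 of 6 fibroblast and 5 of 7 neuron and Schwann cell markers, as well as Fxyd5 and Fxyd6. Of all probe sets, 35.9% were lower. Only 3 of the 4 adipocyte and 4 of the 7 neuron and Schwann cell markers passed the expression limit. All 3 measured liver markers, none of them above that limit, were lower too. At E10.5, 1 fibroblast marker and 1 neuron and Schwann cell marker were higher. In the same order of cell types, liver left out, the counts of lower markers at E19.5 were 5, 4, 2, 3, and 4. At that stage 13.6% of all probe sets were lower, and 2 fibroblast markers were higher. The log2 of the summed endothelial signals ranged from 9.21 to 9.73 at E10.5, from 9.17 to 9.92 at E19.5, and from 9.82 to 10.0 in young adult hearts. The log2 of the summed leukocyte signals ranged from 6.46 to 6.53 at E10.5, from 7.42 to 7.78 at E19.5, and from 10.0 to 10.2 in young adult hearts. S100b, one of the Schwann cell genes, differed between E10.5 and young adult by -2.21. The part of these cells in the adult signals of Fxyd5 and Fxyd6 was not tested. Among cardiomyocyte markers 2 of 5 were higher at E10.5 and 4 of 5 at E19.5, with a median of 0.96 at E19.5. The log2 of their summed signals had means of 14.81 and 14.97 at these stages and 14.28 in young adult hearts. This sum depends most on the brightest genes, Myh7 and Myl2. Myh7, which per the study falls after birth in rodent hearts, had means of 13.29 at E19.5 and 11.52 in young adult hearts. Those of Myl2 were 13.53 and 13.27, and Myh6, also listed, had no matched probe set. Markers of mesothelium and epithelium were higher for 3 of 5 genes and lower for 1 at E10.5, with a median of 1.91, and at E19.5 Wt1 alone was called (1.70). The part of these cells in the fall of Atp1b1 and Atp1b2 was not tested.

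Of 6 other beta subunit and FXYD genes, 1 was higher and 3 were lower at E10.5 than in young adult hearts, and at E19.5 none was higher and 1 was lower. Their median log2 fold change was -0.35 at E10.5 and -0.17 at E19.5. Atp1b3 alone among them had a probe set above the expression limit. Atp1b3, another beta subunit, had its lowest levels late in gestation. Its signals were 8.87, 8.97, and 8.23 at E10.5 and 7.13, 7.15, and 6.40 at E19.5. Young adult hearts, at 8.08, 7.49, and 7.30, lay between them without overlap. It was higher at E10.5 than at E19.5 by 1.79 ± 0.26 (SE; adjusted p = 1.8e-06, limma), and lower at E19.5 than in young adult hearts by -0.73 (adjusted p = 0.0345, limma). From E19.5 to young adult, Atp1b1 fell and Atp1b3 rose, and the difference between these changes was not tested. Fxyd2, Fxyd3, and Fxyd4, lower at E10.5 than in young adult hearts (-0.36, -0.64, and -0.89), stayed below the limit, as did Atp1b4 and Fxyd7. Stage means of Atp1b3 lay between 6.80 and 7.03 from E15.5 to E19.5.

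Of 15 measured partners and kinases of the pump, 6 were higher and 2 lower at E10.5 than in young adult hearts, and 5 were higher and 2 lower at E19.5. Their median was 0.34 at E10.5 and 0.11 at E19.5. Slc8a1, the sodium-calcium exchanger of heart muscle, measured 8.91, 9.08, and 8.62 at E10.5 and 7.66, 7.68, and 7.0 at E19.5. Young adult hearts measured 5.11, 4.89, and 5.27. The stages did not overlap, and the differences from young adult were 3.78 at E10.5 (adjusted p = 7.21e-12, limma) and 2.36 at E19.5 (adjusted p = 4.22e-07, limma). Ank3, an ankyrin that anchors membrane proteins to the cytoskeleton, differed by 2.25 and 1.28 at these stages. Prkaca, the catalytic subunit of protein kinase A that phosphorylates phospholemman, was higher by 0.35 at E10.5 (adjusted p = 0.0488, limma) and by 1.52 at E19.5 (adjusted p = 4.39e-09, limma). Ppp1r1a, an inhibitor of protein phosphatase 1, was higher by 1.21 at E10.5, and Cav3, a scaffold protein of muscle caveolae, by 1.15 at E19.5. In old adult hearts 1 of the 15 was higher than in young adults, Prkacb (0.75; adjusted p = 0.0482, limma), and none was lower.

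Among 13177 candidate probe sets, the stage means most like those of 1439036_a_at of Atp1b1 belonged to Pcbp4, Meg3, and Fbn2 (Pearson r of 0.995, 0.994, and 0.992 over 12 stages). For Fxyd5 they belonged to Ptprb, Zbtb20, and Flt1 (r of 0.992, 0.991, and 0.989), and for Fxyd6 to Timp2, Apoe, and Gsn (0.991, 0.990, and 0.989). Glt8d1, 2610319H10Rik, and Mtmr3 were nearest to Atp1b2 (0.991, 0.990, and 0.989), and Thbs2, Cdc42ep3, and AI256396 to Fxyd1 (0.970, 0.969, and 0.969). Between members, r over the stage means was 0.95 for Fxyd5 with Fxyd6, -0.97 for 1439036_a_at with Fxyd6, and 0.14 for 1439036_a_at with Fxyd1. The other expressed Atp1b1 probe sets gave -0.89, -0.87, and -0.83 with Fxyd6, and -0.17, -0.20, and -0.27 with Fxyd1. Stage means of Fxyd5, Fxyd6, and 1439036_a_at each had their widest gap between embryonic and adult hearts, so their r values include that step. These are descriptions over 12 stage means that come from the same arrays.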

How the data were processed

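RNA from hearts of OF1 mice was hybridized to Affymetrix whole-genome mouse arrays (36 arrays, 3 per stage). The authors made the deposited log2 values by robust multi-array average (background correction, quantile normalization, and summary per probe set). Per the labels, Affymetrix Expression Console and Partek 6.6 were used. The values were taken as deposited, and the number of arrays limits the precision. Groups came from the labelled stage.

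A model of 12 stage means was fitted (limma 3.58.1 in R 4.3.3) to 36 arrays and 45101 probe sets (prior degrees of freedom 6.96), with Benjamini-Hochberg adjustment within each comparison. Slopes used 30 embryonic arrays. The sexes were compared with stage as a block. The procedures were tested on simulated data. Alternatives concerned scaling, filtering, variances, covariates, and left-out arrays. Named are all member probe sets, pathway genes from lists (read from the brightest probe set), and the 3 genes most alike in stage means. Members and lists were chosen with earlier results of these data known. Promoter windows are from RefSeq. For 4 listed genes no probe set was matched, and they were not analysed here. Some other listed genes are not reported here.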

Additional observations from a re-analysis of the deposited data

Results flagged for a closer look

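The difference between the male and the female array was inspected in each of 9 stages for the 10 member probe sets, and a stage was noted where its value lay far from the other 8 (Dixon's criterion, which chance meets in about 1 of 20 such groups). In young adult hearts, Atp1b2 (1435148_at) was lower in the male by -0.84, while the other 8 stages ranged from -0.22 to 0.14. In old adult hearts, Atp1b1 (1423890_x_at) was higher in the male by 0.54, while the other 8 ranged from -0.16 to 0.18. The other expressed Atp1b1 probe sets, which did not meet the criterion, were higher in the old male too, by 0.67, 0.65, and 0.56. All 5 measured cardiomyocyte markers had their highest value of the stage on the old male array, and the part of heart muscle content was not tested. Each difference rests on 1 array per sex and was not tested.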

How the results depend on the processing

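Signs of uncalled values turned most often. Of the member probe sets past the DEG limits, E10.5 against young adult gave 5, but 2 with hybridization controls as a covariate and 3 with only the arrays of both stages (4 to 5 without single arrays). E19.5 against young adult gave 1, but 0 with only the arrays of both stages or with the actin 3′ minus 5′ difference as a covariate (added after seeing the data), 4 with a log2 limit of 1, and 0 to 2 without single arrays. E10.5 against E19.5 gave 0, but 1 with the log2 limit of 1 or the hybridization controls. At an adjusted p under 0.05, E10.5 against E19.5 gave 7 members, but 3 with the hybridization controls and 5 to 7 without single arrays. E10.5 against young adult gave 9 to 10 and E19.5 against young adult 7 without single arrays. Old against young adult gave 1, but 0 with only both stages' arrays, 0 at an adjusted p under 0.01, and 0 to 2 without single arrays. E11.5 against E10.5 gave 0, but 2 with array weights and 1 with the hybridization controls. Daily steps gave 0, but 1 with the hybridization controls. The slope gave 8, but 0 with only the arrays whose titles have the heart prefix. The cause was not tested.

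Atp1b2 for E10.5 against young adult was -0.019 with median centring. Fxyd1 for E19.5 against young adult was -0.12 with median centring, -0.71 with the hybridization controls (adjusted p = 0.0355, limma), and -0.11 with the actin difference. Atp1b1 1439036_a_at for E10.5 against E19.5 was 0.21 with the hybridization controls, 0.13 with the actin difference, and 0.63 as the mean of the gene's probe sets (adjusted p = 0.000927, limma); without single arrays it ranged from -0.28 to 0.063. For old against young adult, 1451152_a_at was -0.35 and 1423890_x_at -0.38 with the hybridization controls, and Atp1b2 was -0.000275 as the mean of its probe sets. Without single arrays these 2 Atp1b1 probe sets ranged from -0.14 to 0.66 and from -0.097 to 0.57, Fxyd1 from -0.24 to 0.065, and Fxyd5 from -0.082 to 0.52. The slope of 1439036_a_at was 0.020 with quantile normalization, 0.032 with centring, 0.065 without the prefixed arrays (adjusted p = 0.0333, limma), and 0.0034, 0.00092, and 0.017 without E11.5, E13.5, and E19.5. That of Fxyd6 was 0.032 with centring, 0.039 with the hybridization controls, 0.035 with the actin difference, 0.012 and 0.0068 without E12.5 and E18.5, and 0.12 with only prefixed arrays. With only prefixed arrays Atp1b2 gave -0.080 and Fxyd1 -0.14, and with the actin difference Atp1b2 gave -0.0075.

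Centring moved the median of all probe sets for E10.5 against young adult from -0.19 to -0.71, and the share of higher among called probe sets from 43.0% to 20.5%. The numbers mf1 to mf3 of E10.5 and E11.5 were not taken as pairs, since the numbering in the titles runs on across both stages. Correlations of deviations for equal numbers were 0.22, -0.25, and 0.17. With 3 arrays per stage and no reference beside them, they cannot settle whether the samples were paired. With the numbers as a replicate block 0 members were called. With 3 arrays per stage, precision is limited, and signals under 5 lie near background.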

Other observations

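The proton-potassium pumps of stomach and colon are the closest relatives of the sodium pump. Of their 3 genes, Atp4b alone passed the expression limit of 5, with stage means that went from 4.99 at E10.5 to 5.56 in old adult hearts. It was lower at E10.5 than in young adult hearts by -0.52 ± 0.16 (SE; adjusted p = 0.0057, limma). Atp4a and Atp12a were not called in that comparison, with stage means of at most 3.09 and 2.37.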
